A study of Mus musculus with 10 samples.

Results

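The 10 genes described here are the core of the Notch pathway as it is found in muscle cells: the receptors *Notch1*, *Notch2* and *Notch3*, the ligands *Jag1*, *Jag2* and *Dll1*, the target genes *Hes1*, *Hey1* and *Heyl*, and the inhibitor *Numb*. They are 10 of the 55359 genes in the authors' table, matched by symbol, and each symbol occurs once. They were chosen by their role in myogenesis and by the lower level of *Notch3* in the si-*Fndc1* libraries. Because this choice used the contrast between the groups, the differences of the 10 genes are given as a description with no test. Tests are given for other genes of the pathway.

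C2C12, a line of mouse myoblasts that fuse into myotubes when serum is reduced, was grown in 20% FBS and transfected with 100 nM of a scrambled control siRNA (si-Control) or of an siRNA against *Fndc1* (si-*Fndc1*). The sample labels place all libraries at 4 days of differentiation in 2% horse serum, whereas the description of the series places the harvest at 48 h after transfection. The mRNA of 5 libraries per group, 10 in all, was sequenced. Nothing in the labels says whether the libraries came from separate cultures, so p-values measure the spread between libraries, which may be technical.

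In Notch signaling a ligand on one cell binds a receptor on its neighbour. The receptor is then cut by an ADAM protease and by γ-secretase, and its freed intracellular domain enters the nucleus, where it joins the DNA-binding protein RBPJ and Mastermind coactivators and switches on genes of the Hes and Hey families. In muscle the pathway is known for holding satellite cells and myoblasts in an undifferentiated state, and Numb is known for lowering Notch signaling through endocytosis of the receptor.

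Between 66771605 and 75995168 reads were counted in each si-Control library, and between 56332844 and 72839369 in each si-*Fndc1* library. *Fndc1* itself was at 27.8 ± 2.04 FPKM in si-Control and 20.9 ± 1.70 FPKM in si-*Fndc1* (SD, n = 5 each, p = 0.00794 by an exact two-sided permutation test, which can give no smaller p here), a ratio of 0.752. Its log2 ratio in edgeR's fit was -0.40, and -0.22 with the GC content and length of the transcripts corrected. FPKM scales fragments to a length per gene and the size of the library, so that levels can be set side by side between genes. The length implied by counts and FPKM was 15850 bases for *Notch1*, 11988 for *Notch2* and 8995 for *Notch3*. Orders of levels between genes depend on these lengths, which were not checked against the transcripts present. The cells expressed muscle genes, as their label says. The summed level of 10 myogenic markers was 3759 to 4202 FPKM in si-Control and 3506 to 4146 FPKM in si-*Fndc1*, and of the 10 only *Myf6* had a mean under 0.5 FPKM. *Acta1*, *Tnnt3* and *Des* carried most of this sum, and *Myod1* (40.4 to 42.6 FPKM in si-Control, 43.4 to 50.7 FPKM in si-*Fndc1*) and *Ckm* (63.0 to 71.5 and 78.8 to 91.5 FPKM) were higher in every si-*Fndc1* library than in any si-Control library. The ranges of the other markers overlapped between the groups. Those of *Myh3*, *Myog* and *Des* reached lower in si-*Fndc1*, and those of *Myf5* and *Mef2c* reached higher. Of the 13548 tested genes, 3401 had groups that did not overlap, in either direction. Transcripts of hepatocytes, a cell type no label names, were also present. All 12 matched hepatocyte markers were higher in every si-*Fndc1* library than in any si-Control library, and their summed level was 0 to 5.81 FPKM in si-Control and 46.9 to 171.2 FPKM in si-*Fndc1*, although *Hnf4a*, the defining regulator of the type, had a mean under 0.5 FPKM. Their part in the differences below was not tested.

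All 10 genes passed the filter on low values, a mean of at least 0.5 FPKM over the 10 libraries. In si-Control the order of the levels was *Notch2* (32.2 ± 1.74 FPKM), *Notch3* (22.4 ± 0.895), *Hes1* (8.11 ± 0.858), *Numb* (6.21 ± 0.462), *Jag2* (4.69 ± 0.577), *Dll1* (3.59 ± 0.132), *Notch1* (2.74 ± 0.200), *Jag1* (2.37 ± 0.196), *Heyl* (2.24 ± 0.135) and *Hey1* (0.805 ± 0.175), each as mean FPKM with its SD over 5 libraries. The ranges of neighbours in this order overlapped for *Jag2* and *Dll1*, for *Notch1* and *Jag1*, and for *Jag1* and *Heyl*. The order in si-*Fndc1* was the same except that *Jag1* and *Notch1*, whose ranges again overlapped, changed places. Among the 10 genes, *Notch2* and *Notch3* were therefore the main receptor transcripts of these cultures in both groups. *Jag2* and *Dll1* were the main ligand transcripts among them, and *Hes1* the main target transcript. Outside the 10, *Hes6* lay higher than *Hes1*, at 50.4 FPKM in si-Control and 47.2 FPKM in si-*Fndc1*. Whether *Hes6* responds to Notch in these cells was not tested.

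**Figure D1:**
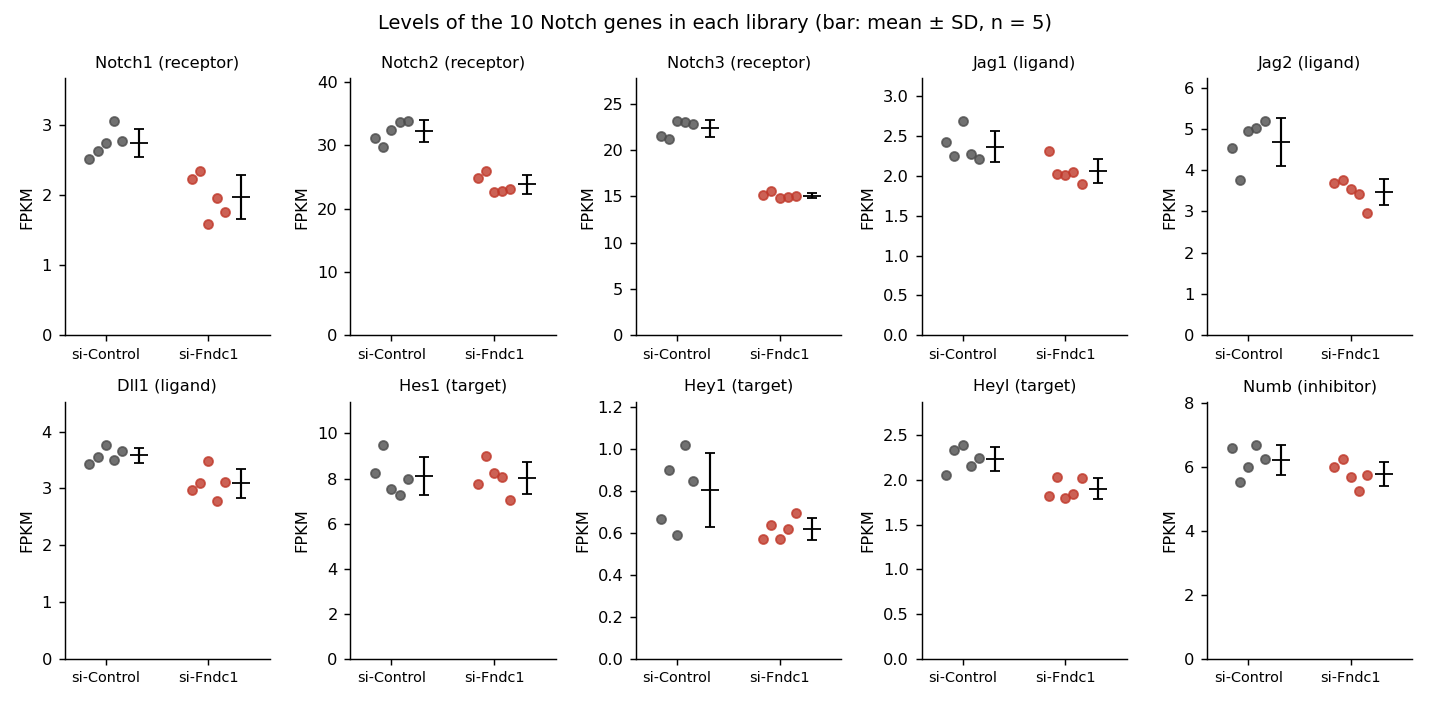
Levels of the 10 Notch genes in FPKM (vertical axes, each from 0) for every si-Control and si-Fndc1 library (1 point per library, with the mean ± SD of 5 libraries beside them). The points of the groups do not overlap for Notch1, Notch2, Notch3 and Heyl, and they overlap over nearly their whole range for Hes1.

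A log2 difference is here the log2 ratio of si-*Fndc1* to si-Control fitted by edgeR, given with its standard error (SE). The 3 receptors were lower in si-*Fndc1*, by 26.0% to 32.6% of their si-Control mean. *Notch3*, the receptor on which the choice of genes turned, is best known from the mural cells of arteries and is also a marker of muscle satellite cells. It had 21.5, 21.3, 23.1, 23.1 and 22.8 FPKM in si-Control libraries 1 to 5 and 15.1, 15.5, 14.8, 14.9 and 15.0 FPKM in si-*Fndc1* libraries 1 to 5. The groups were thus far apart, with 15.5 FPKM in the highest si-*Fndc1* library and 21.3 FPKM in the lowest si-Control library, and the SD over 5 libraries was 0.286 FPKM in si-*Fndc1* and 0.895 FPKM in si-Control. The log2 difference was -0.56 (SE 0.03), from 13626 to 15067 reads per si-Control library and 7600 to 10219 reads per si-*Fndc1* library.

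*Notch2*, the most abundant receptor, had 31.2, 29.7, 32.5, 33.8 and 33.8 FPKM in si-Control and 24.8, 25.9, 22.6, 22.8 and 23.0 FPKM in si-*Fndc1*. The groups did not overlap, and the log2 difference was -0.43 (SE 0.05). *Notch1*, the receptor with the lowest level, had 2.52, 2.62, 2.73, 3.05 and 2.76 FPKM in si-Control and 2.23, 2.34, 1.58, 1.95 and 1.76 FPKM in si-*Fndc1*. The groups did not overlap here either, but the si-*Fndc1* libraries 1 and 2 were closer to si-Control than libraries 3 to 5, and the log2 difference of -0.46 had a larger SE of 0.10. Since all 3 receptors were lower, the composition of the receptor transcripts shifted little. *Notch3* made up 39.0% ± 0.58 of the summed receptor FPKM in si-Control and 37.0% ± 1.15 in si-*Fndc1* (SD, n = 5), and *Notch2* made up 56.2% ± 0.60 and 58.2% ± 0.69. The sum itself was 57.3 ± 2.73 FPKM in si-Control and 40.9 ± 2.01 FPKM in si-*Fndc1* (SD, n = 5). In these bulk cultures, fewer cells of a type and less RNA per cell cannot be told apart.

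In the deposited table, *Notch3* (ENSMUSG00000038146) lies on chromosome 17 between 32339794 and 32385826 (minus strand), *Notch2* (ENSMUSG00000027878) on chromosome 3 between 97920843 and 98057677 (plus strand), and *Notch1* (ENSMUSG00000026923) on chromosome 2 between 26347915 and 26406675 (minus strand). The submitters' processing notes name the build GRCm39 for these files. Because the receptor transcripts were lower together, the 250 bases upstream of their RefSeq transcription starts are shown, read from RefSeq sequences of the build GRCm38.p6 at chr17:32166891-32167140 (minus strand), chr3:98013288-98013537 (plus strand) and chr2:26503823-26504072 (minus strand). Capitals mark the GC box GGGCGG, the site of Sp1-type factors, and CACGCG, a site of Hes and Hey proteins, on either strand.
Notch3: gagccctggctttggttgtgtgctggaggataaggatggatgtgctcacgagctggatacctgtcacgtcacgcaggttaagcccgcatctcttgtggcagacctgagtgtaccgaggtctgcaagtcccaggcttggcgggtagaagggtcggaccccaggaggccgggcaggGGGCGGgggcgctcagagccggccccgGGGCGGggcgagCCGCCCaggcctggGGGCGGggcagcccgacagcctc
Notch2: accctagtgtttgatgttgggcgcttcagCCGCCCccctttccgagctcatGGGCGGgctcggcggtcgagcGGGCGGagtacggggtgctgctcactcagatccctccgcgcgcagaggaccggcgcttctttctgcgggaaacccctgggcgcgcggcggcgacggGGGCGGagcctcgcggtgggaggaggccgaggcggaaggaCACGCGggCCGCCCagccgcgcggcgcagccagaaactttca
Notch1: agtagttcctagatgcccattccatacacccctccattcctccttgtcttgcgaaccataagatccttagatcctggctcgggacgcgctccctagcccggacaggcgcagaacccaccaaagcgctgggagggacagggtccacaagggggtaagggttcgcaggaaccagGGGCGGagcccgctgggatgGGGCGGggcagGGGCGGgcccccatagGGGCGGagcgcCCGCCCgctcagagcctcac
All 3 were rich in G and C, at 68.8% for *Notch3*, 72.0% for *Notch2* and 66.0% for *Notch1*, where the median of all 32851 RefSeq promoters was 52.4% over the same 250 bases. The GC box, which was added to the search after the sequences had been seen, occurred 4 times upstream of *Notch3* and 5 times upstream of *Notch2* and of *Notch1*.

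RefSeq promoters were found for 7 of the 10 genes, the receptors, the ligands and *Numb*, with 10 promoters in all, each from 250 bases before to 50 bases after the start. *Hes1*, *Hey1* and *Heyl* had no entry. Motifs were counted on both strands. TGGGAA, the core bound by RBPJ, and GTGGGAA, which contains it, occurred in none of the 10 promoters, against 25.6% and 6.38% of all promoters. CACGCG occurred in a promoter of *Notch2*, *Jag1*, *Jag2* and *Dll1*, against 9.27% of all promoters, 42 bases upstream of the *Notch2* start and 68 bases upstream of a *Dll1* start. CACGTG, the other site of Hes and Hey proteins, occurred in none, against 7.15%. The E-box CAGCTG occurred in promoters of *Jag1* and *Dll1*, against 16.3%, and the GC box in those of 5 genes, against 35.7%. These matches are descriptions of the letters in these windows. In the promoters of these genes no CACGCG or CAGCTG overlapped a GC box.

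Among the ligands, the difference without correction for GC content and length was largest in *Jag2*. With the correction it was largest in *Jag1*, at -0.19, with *Jag2* at -0.10 and *Dll1* at -0.09. Whether the ligands differed from each other was not tested. *Jag2*, a Jagged-type ligand (ENSMUSG00000002799, chromosome 12 from 112871439 to 112893396), had 4.53, 3.75, 4.95, 5.02 and 5.19 FPKM in si-Control and 3.68, 3.76, 3.55, 3.42 and 2.97 FPKM in si-*Fndc1*. The groups met only at si-Control library 2, which lay just below si-*Fndc1* library 2, and the log2 difference was -0.42 (SE 0.10). *Dll1*, the Delta-type ligand of committed myoblasts (ENSMUSG00000014773, chromosome 17 from 15587616 to 15597134), had 3.44, 3.56, 3.77, 3.50 and 3.67 FPKM in si-Control and 2.97, 3.11, 3.49, 2.78 and 3.11 FPKM in si-*Fndc1*. Of the si-*Fndc1* libraries, 4 of 5 lay below every si-Control library and library 3 lay among them, with a log2 difference of -0.21 (SE 0.07). *Jag1*, the other Jagged-type ligand (ENSMUSG00000027276, chromosome 2 from 136923376 to 136958564), had 2.43, 2.25, 2.69, 2.28 and 2.21 FPKM in si-Control and 2.32, 2.02, 2.01, 2.05 and 1.90 FPKM in si-*Fndc1*. Here si-*Fndc1* library 1 lay among the si-Control libraries, and the log2 difference was -0.19 (SE 0.07). The summed level of the 3 ligands was 10.6 ± 0.709 FPKM in si-Control and 8.63 ± 0.479 FPKM in si-*Fndc1* (SD, n = 5).

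Without correction for GC content and length, the target genes did not share one pattern. With it, the log2 differences of *Hes1* and *Heyl* were alike, at -0.11 (SE 0.08) and -0.08 (SE 0.06). *Hey1* was then at -0.40 (SE 0.16). The values that follow are uncorrected. *Hes1*, a transcriptional repressor and the most abundant of the 3 targets (ENSMUSG00000022528, chromosome 16 from 29883202 to 29886614), had 8.24, 9.49, 7.55, 7.28 and 7.96 FPKM in si-Control and 7.74, 9.01, 8.23, 8.05 and 7.05 FPKM in si-*Fndc1*. The groups covered nearly the same range, and the log2 difference was -0.01 (SE 0.09), with a sign that changed between normalizations. *Heyl*, a Hes-related repressor (ENSMUSG00000032744, chromosome 4 from 123127349 to 123143668), had 2.05, 2.33, 2.39, 2.16 and 2.25 FPKM in si-Control and 1.82, 2.04, 1.80, 1.84 and 2.03 FPKM in si-*Fndc1*. The groups of *Heyl* were separated only by a narrow gap, from 2.04 FPKM in the highest si-*Fndc1* library to 2.05 FPKM in the lowest si-Control library, and the log2 difference was -0.22 (SE 0.06). *Hey1*, the third of them (ENSMUSG00000040289, chromosome 3 from 8728419 to 8732316), was near the lowest level at which genes were tested. It had 0.666, 0.900, 0.590, 1.02 and 0.849 FPKM in si-Control and 0.572, 0.638, 0.572, 0.620 and 0.697 FPKM in si-*Fndc1*, from 144 to 272 reads per library. The si-Control libraries 2, 4 and 5 lay above every si-*Fndc1* library and libraries 1 and 3 did not, and the log2 difference of -0.37 had the largest SE of the 10 genes, 0.16.

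*Numb*, the inhibitor (ENSMUSG00000021224, chromosome 12 from 83840808 to 83968708), had 6.58, 5.54, 6.01, 6.69 and 6.24 FPKM in si-Control and 6.01, 6.24, 5.68, 5.25 and 5.74 FPKM in si-*Fndc1*. The groups overlapped over most of their range, and the log2 difference was -0.09 (SE 0.07). Reads of 10 other listed genes that overlap *Notch1*, *Notch2*, *Notch3*, *Jag2* or *Numb* were few, each at most 1.05% of the reads of the Notch gene. Use of the strand in counting is not given in the sources used here.

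Set side by side, all 10 log2 differences were below 0 (that of *Hes1* was 0.01 with upper-quartile scaling), with a median of -0.29 (median of the 13548 genes tested: 0.00). In edgeR's quasi-likelihood fit over all these genes, 6 of the 10 passed the threshold of 0.05 for the adjusted p with lower levels, as did 17.2% of all genes. The FPKM values of the groups did not overlap, with si-*Fndc1* lower, for 4 of the 10 genes, against 13.0% of all genes. Since the genes were chosen with this contrast in view, nothing is read from these counts.

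The size of these differences depended on a joint correction for the GC content and length of the transcripts. How much of the shift came from GC content and how much from length was not tested. Over the 11185 tested genes with a known GC content and length, the log2 difference declined as GC content increased (Spearman's rho of -0.52 over genes, which are no replicates of each other), and the GC content of the Notch genes ran from 48.8% in *Jag1* to 61.3% in *Jag2*, with 7 of the 10 above the median of 50.5%. Genes of 56% to 60% GC, the range of *Notch1* (57.1%) and *Notch3* (59.6%), had a median log2 difference of -0.16. When the trend with GC content and length was taken out within each library, the log2 difference of *Notch3* was -0.25 (SE 0.03) and that of *Notch2* was -0.23 (SE 0.03). *Notch1* was then at -0.14 (SE 0.08), *Jag2* at -0.10 (SE 0.07), *Dll1* at -0.09 (SE 0.06) and *Heyl* at -0.08 (SE 0.06). *Jag1* at -0.19, *Hey1* at -0.40 and *Numb* at -0.14 moved by less than the spread between libraries, as did *Hes1* at -0.11. With this correction 2 of the 10 genes passed the threshold with lower levels, beside 11.5% of the 11185 genes, and nothing is read from this count either.

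**Figure D2:**
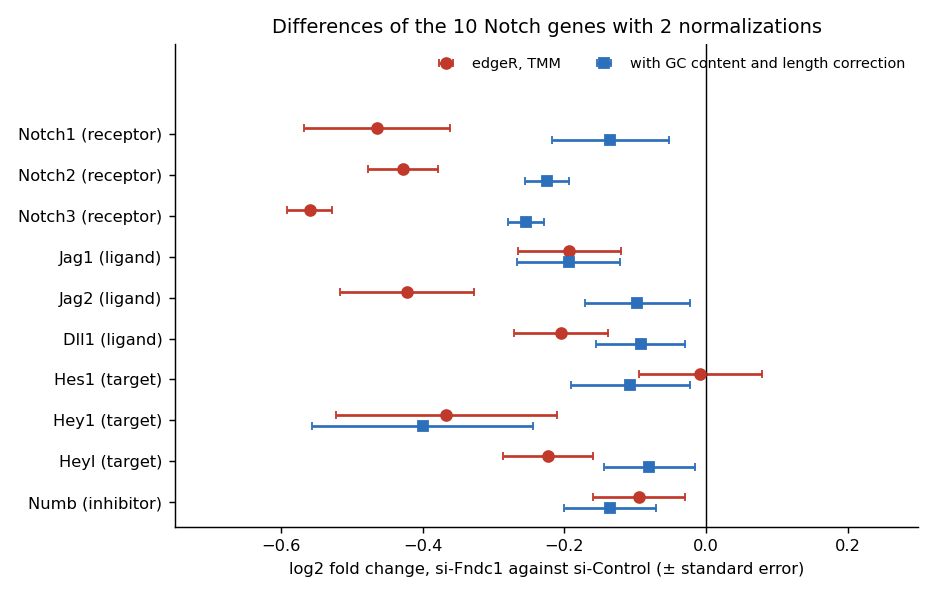
Log2 fold change of si-Fndc1 against si-Control (horizontal axis, points with the standard error as bars) for the 10 Notch genes, by edgeR with TMM normalization (circles) and with GC content and length corrected (squares). The receptors and Jag2 move towards 0 with the correction, Notch3 from -0.56 to -0.25, while Jag1, Hey1 and Numb stay close to where they were.

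**Figure D3:**
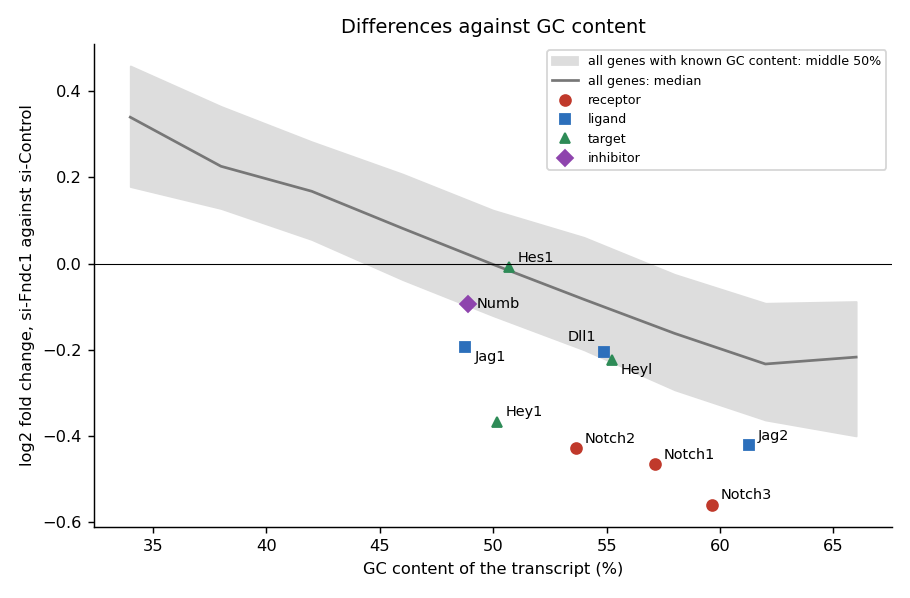
Log2 fold change of si-Fndc1 against si-Control (vertical axis) against the GC content of the transcript in percent (horizontal axis). The line and band give the median and the middle 50% of all genes in bins of GC content, and the symbols the 10 Notch genes by role. The median of all genes falls with GC content, and Notch1, Notch2, Notch3, Hey1, Jag1 and Jag2 lie below the band.

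Over the 10 libraries, log2 CPM (read counts scaled to library size by TMM) of *Notch3* ran closely with that of *Ddr1*, *Kdm6b*, *Kank2* and *Ptprs*, each with a Pearson correlation of 0.99. These libraries share the difference between the groups, and 828 of the other tested genes (6.11%) had a correlation above 0.9. After the group means had been taken off, the correlations of these 4 genes were 0.65 to 0.80. By that measure they ranked only between 153 and 768 among the 13548 tested genes. *Ddr1*, a collagen receptor kinase, was at 31.7 ± 0.752 FPKM in si-Control and 23.4 ± 0.394 FPKM in si-*Fndc1* (SD, n = 5). *Kdm6b*, a histone demethylase, was at 19.9 ± 0.851 and 13.7 ± 0.314 FPKM. All 4 transcripts were rich in G and C, from 56.7% to 60.3%. Among the 10 Notch genes, the one closest to *Notch3* was *Notch2* (0.98, and 0.84 after the group means had been taken off), followed by *Jag2* (0.87 and 0.80), and the one farthest from it was *Hes1* (-0.02 and -0.37).

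*Notch3* is also a marker of mural cells, so the other markers of this type are given beside it. Of 7 mural markers, *Rgs5*, *Kcnj8*, *Abcc9*, *Myh11* and *Mcam* had means under 0.5 FPKM. *Pdgfrb* and *Cspg4* carried nearly all of the summed level of 82.4 to 93.1 FPKM in si-Control and 66.3 to 73.3 FPKM in si-*Fndc1*. Both were lower in every si-*Fndc1* library than in any si-Control library, as were 13.0% of all tested genes. All 7 endothelial markers had means under 0.5 FPKM, with no count of *Cdh5* or *Emcn* in any library. Of 4 markers of cholangiocytes, liver cells in which Notch signaling is active, *Epcam* had no count in any library and *Krt7* a mean under 0.5 FPKM. *Krt19* and *Sox9* carried nearly all of the summed level, 10.6 to 12.2 FPKM in si-Control and 9.58 to 11.6 FPKM in si-*Fndc1*.

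To see how the rest of the pathway behaved, 67 further genes were listed by role. The other receptor and ligands, *Notch4*, *Dll3*, *Dll4*, *Dlk1*, *Dlk2* and *Dner*, lay at or below 0.0401 FPKM on average and were not tested, and neither were *Hes2*, *Hes3*, *Hes5*, *Hes7*, *Hey2* and *Nrarp* among the targets. In all, 17 of the 67 were not tested, with means of at most 0.385 FPKM. Of the 50 tested, 19 changed at an adjusted p-value under 0.05 (edgeR's quasi-likelihood test, Benjamini-Hochberg), 14 that fell and 5 that rose, beside 34.4% of all genes called, 17.2% that fell and 17.3% that rose. Their median log2 difference was -0.08. With GC content and length corrected, 8 of the 50 were called, 4 that fell (*Crebbp*, *Ep300*, *Dtx4* and *Hdac1*) and 4 that rose (*Psenen*, *Neurl1a*, *Ctbp1* and *Ctbp2*), beside 22.9% of all genes, and the median was 0.01. Of the 34 tested genes that the authors' table assigns to the KEGG pathway of Notch signaling, the 10 genes above left out, 14 fell and 4 rose. Beside this, 17.2% of all genes fell and 17.3% rose. Only 5 of the 34 were outside the 67 listed genes, so this list mostly repeats the one above. With the correction 6 fell and 4 rose, beside 22.9% of all genes called.

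**Figure D4:**
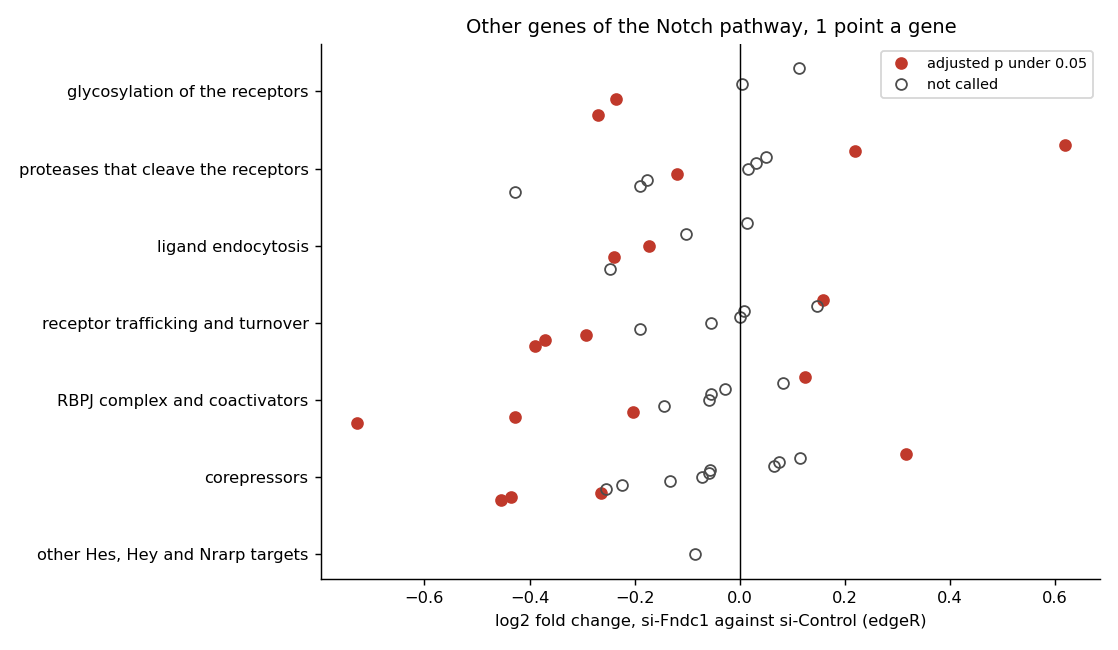
Log2 fold change of si-Fndc1 against si-Control (horizontal axis, edgeR) for the 50 tested further genes of the Notch pathway, grouped by role (rows) with 1 point per gene. Filled points passed an adjusted p-value of 0.05, 14 of them left of 0 and 5 right of it, and Crebbp and Psenen are the outermost points on either side.

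Of the 9 tested genes of RBPJ and its coactivators, *Rbpj* included, 3 fell and 1 (*Kat2b*, an acetyltransferase) rose, beside 34.4% of all genes called. Of these 4 calls, 2 were left with GC content and length corrected, with no filter on low values, and without si-Control replicate 1, 3 or 4 or si-*Fndc1* replicate 3 or 5. *Crebbp*, a histone acetyltransferase that serves many transcription factors, had 4.05, 3.64, 3.94, 4.43 and 4.38 FPKM in si-Control and 2.54, 2.66, 2.25, 2.43 and 2.37 FPKM in si-*Fndc1*, with a log2 difference of -0.73 (SE 0.06, adjusted p = 2.84e-05, edgeR). This was a larger difference than that of any of the 10 Notch genes, and the groups did not overlap. Its paralog *Ep300* fell from 10.4 ± 0.960 to 7.72 ± 0.426 FPKM (SD, n = 5; log2 difference -0.43, adjusted p = 0.000503, edgeR), and with GC content and length corrected they were at -0.49 and -0.29, both still called. *Maml1*, a Mastermind coactivator, fell from 7.47 ± 0.664 to 6.45 ± 0.326 FPKM (SD, n = 5; log2 difference -0.20, adjusted p = 0.0295, edgeR). Its call was lost without si-Control replicate 1, 3 or 4 or si-*Fndc1* replicate 3, 4 or 5 (adjusted p = 0.0559 to 0.0725), and with GC content and length corrected, where it was at -0.04. *Rbpj* itself, the DNA-binding partner of every Notch receptor, had 2.76, 3.02, 4.03, 2.97 and 3.64 FPKM in si-Control and 4.73, 3.12, 2.59, 4.28 and 2.58 FPKM in si-*Fndc1*. Its libraries scattered within si-*Fndc1* over more than the range of si-Control, with libraries 1 and 4 above all others, and the log2 difference of 0.08 (SE 0.18) did not pass the test (adjusted p = 0.766, edgeR). It was -0.05 without si-*Fndc1* replicate 1 and -0.01 without si-*Fndc1* replicate 4.

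Of the 13 corepressors tested, 3 fell and 1 rose (30.8%, beside 34.4% of all genes), and with GC content and length corrected 1 fell and 2 rose. *Spen*, which holds RBPJ target genes silent, fell from 7.29 ± 0.606 to 5.29 ± 0.523 FPKM (SD, n = 5; log2 difference -0.45, adjusted p = 0.000925, edgeR). *Cir1*, which links RBPJ to histone deacetylases, rose from 9.31 ± 0.762 to 11.5 ± 0.571 FPKM (log2 difference 0.32, adjusted p = 0.00284, edgeR). Neither was called with the correction, and their log2 differences were then -0.11 and 0.11.

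Of the 9 tested proteases that cut the receptors, 1 fell and 2 rose (33.3%, beside 34.4% of all genes called). With GC content and length corrected 1 rose and none fell, beside 22.9% of all genes called. The genes called before the correction were subunits of the γ-secretase complex. *Psenen*, its smallest subunit, rose from 12.2 ± 1.65 to 18.6 ± 2.20 FPKM (SD, n = 5), with every si-*Fndc1* library above every si-Control library. Its log2 difference was 0.62 (SE 0.11, adjusted p = 0.00162, edgeR), and 0.50 with GC content and length corrected, where it was still called. *Aph1b* rose from 3.64 ± 0.129 to 4.22 ± 0.208 FPKM (log2 difference 0.22, adjusted p = 0.00567, edgeR) and *Ncstn* fell from 29.8 ± 1.14 to 27.3 ± 0.598 FPKM (log2 difference -0.12, adjusted p = 0.0161, edgeR). Both lost their call with the correction, at 0.06 and -0.09. The catalytic subunit *Psen2* and the surface proteases *Adam10* and *Adam17* did not pass the test, with log2 differences of -0.18, 0.03 and 0.05.

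Enzymes that add sugars to the receptors and set their choice of ligand included *Lfng*, which fell from 2.52 ± 0.163 to 2.08 ± 0.157 FPKM (SD, n = 5; log2 difference -0.27, adjusted p = 0.0262, edgeR), and *Rfng*, which fell from 9.49 ± 0.705 to 8.02 ± 0.405 FPKM (log2 difference -0.24, adjusted p = 0.0118, edgeR). They were 2 of 4 tested, beside 34.4% of all genes called. *Lfng* was no longer called without si-Control replicate 3 or 5 or si-*Fndc1* replicate 1 or 3 (adjusted p = 0.0504 to 0.0647), and neither was called with GC content and length corrected, at -0.13 and -0.08.

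Among genes for the endocytosis of the ligands and the turnover of the receptors, 5 fell and 1 rose before that correction. The shares called were 40.0% for ligand endocytosis and 44.4% for receptor turnover, beside 34.4% of all genes, 17.2% that fell and 17.3% that rose. Of the 5 tested for ligand endocytosis, *Mib2* fell with a log2 difference of -0.24 (adjusted p = 0.00206, edgeR) and *Epn1* with -0.17 (adjusted p = 0.00852, edgeR). Of the 9 tested for receptor trafficking and turnover, 3 fell and 1 rose. *Numbl*, the paralog of *Numb*, fell from 7.80 ± 0.230 to 6.00 ± 0.167 FPKM (SD, n = 5) with no overlap of the groups (log2 difference -0.37, SE 0.03, adjusted p = 2.96e-05, edgeR). After the correction the sign of all 3 turned, to 0.03 in *Numbl*, 0.04 in *Mib2* and 0.06 in *Epn1*, and none was called. *Dtx4* and *Dtx3*, of the Deltex ubiquitin ligases that act on Notch receptors, fell with log2 differences of -0.29 (adjusted p = 0.000457, edgeR) and -0.39 (adjusted p = 0.00986, edgeR), and were at -0.19 and -0.26 with the correction, *Dtx4* still called and *Dtx3* not. *Hes6*, the only further Hes or Hey gene that was tested, was at 50.4 FPKM in si-Control and 47.2 FPKM in si-*Fndc1*, and its log2 difference of -0.09 did not pass the test.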

How the data were processed

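Messenger RNA of 10 libraries of C2C12 cells was sequenced, 5 per group, and the condition and replicate number of each library were taken from its label. The authors deposited, without normalization, the number of reads on each of 55359 genes as raw counts. They also deposited FPKM values, with 0.0001 in place of 0. The submitters' processing notes name cutadapt 1.9, FastQC and GRCm39, the paper's methods name TopHat, mm10, htseq-count and DESeq2 for 4 libraries, and the series' own text gives STAR and mm9. All 10 libraries were used, and 0 columns of values were left without a sample.

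Counts were fitted with edgeR 4.0.16 (quasi-likelihood test, TMM) in R 4.3.3 for 13548 genes, those whose FPKM averaged 0.5 or more, with Benjamini-Hochberg adjustment over all of them and a threshold of 0.05. SE is the size of the log2 difference over the square root of F. Levels are FPKM as deposited. For the GC and length correction, a trend of log counts with both (splines of 5 degrees of freedom, Huber regression) was fitted in each library and used as an offset, for 11185 genes (82.6%) with a GC content from NCBIM37 transcripts and a length implied by counts and FPKM. Alternatives were DESeq2 1.42.0, other scalings, limma 3.58.1 on log2(FPKM + 1) and on log2(FPKM + 0.1), other filters, a replicate block and each library left out. The fits were tested on simulated data.

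Within groups, each of the 20 pairs of libraries differed beyond sampling noise (chi-square divided by its degrees of freedom: 33.1 or more). The Notch genes and the lists were chosen with earlier results of these data known. Named beside the 10 genes are *Fndc1*, *Rbpj*, up to 3 genes per role with the smallest p-values among those called, and the 5 genes most correlated with *Notch3*, and some genes that fall under these rules are not reported here. *Kat2b*, *Hdac1*, *Neurl1a*, *Ctbp1*, *Ctbp2*, *Hes6*, *Psen2*, *Adam10*, *Adam17*, some markers and the genes too low to test were named after their values had been seen. The hepatocyte list had 13 genes, of which 12 matched by symbol.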

Additional observations from a re-analysis of the deposited data

How the results depend on the processing

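With the correction for GC content and length the log2 differences were -0.135 in *Notch1*, -0.225 in *Notch2*, -0.254 in *Notch3*, -0.097 in *Jag2*, -0.092 in *Dll1* and -0.080 in *Heyl*, and with a replicate block added they were -0.142, -0.225, -0.254, -0.094, -0.095 and -0.080. The number of the 10 genes called, from which nothing is read, was 2 with either, and also 2 with a mean FPKM of at least 5, which left fewer of them to test. All genes called were 2558 with the correction and 1664 with the block added, from 4663. The other pathway genes called were 8 (4 that fell) and 6 (3 that fell, 3 that rose), and those of the KEGG pathway 10 (6 that fell) and 6 (4 that fell, 2 that rose). *Mib2*, *Epn1* and *Numbl* turned to 0.037, 0.064 and 0.028 with the correction and to 0.036, 0.064 and 0.026 with the block added. With single libraries left out *Rbpj* ran from -0.054 (without si-*Fndc1* replicate 1) to 0.173 (without si-*Fndc1* replicate 5). The cause of these shifts was not tested.

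Same-numbered libraries of the groups showed no sign of deviating together (correlations of -0.05 to 0.06 over 5 pairs). A weak pairing by number could give the same values, so this check cannot exclude it. With the replicate block alone, 3 of the other pathway genes rose in place of 5, *Lfng* and *Ncstn* were no longer called, and the counts over the 10 genes, over all genes and over the KEGG pathway moved by less than 1.5 times. DESeq2, other scalings, limma and the absence of a filter moved the 10 genes by less than the spread between libraries, which is wide in *Hey1*, at -0.151 with limma on log2(FPKM + 1) and -0.167 on the same values quantile-normalized, from -0.367. With each library left out in turn, *Notch3* ran from -0.58 to -0.55, *Notch2* from -0.46 to -0.41, *Notch1* from -0.54 to -0.40, *Jag2* from -0.49 to -0.37 and *Hes1* from -0.05 to 0.05. The other pathway genes called then ran from 16 to 21. Between 144 and 272 reads per library limit what can be said of *Hey1*.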
